A study of Mus musculus with 10 samples.

Results

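The transcripts of 10 apolipoprotein genes, Apoa1, Apoa2, Apoa4, Apoa5, Apob, Apoc1, Apoc2, Apoc3, Apoc4 and Apoe, were examined in regenerating mouse liver. They were taken by symbol from a table of 23847 loci, and each was found once. The livers were collected 40 h after partial hepatectomy, an operation that removes most of the liver and sets the remaining hepatocytes to divide. There were 6 libraries, 3 from Arid1a Fl/Fl mice (WT) and 3 from Arid1a Fl/Fl; Alb-cre mice (KO). Every mouse carried the floxed Arid1a allele, was of mixed C57/B6 and 129 descent and was 90 days old. Arid1a encodes a DNA-binding subunit of SWI/SNF, a complex that moves nucleosomes. In KO mice Cre is made under the albumin promoter, which is active in hepatocytes. Which other cells of the liver keep the gene was not measured. A further 4 libraries, from liver taken before hepatectomy, were not analysed here. No label ties a library to a mouse of its own, and p-values then describe only how far these libraries vary.

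Apolipoproteins are the protein part of plasma lipoproteins, the particles that carry triglyceride and cholesterol in blood, and hepatocytes make most of them. Apob is the structural protein of very-low-density and low-density lipoproteins, and Apoa1 that of high-density lipoproteins (HDL). The smaller proteins exchange between particles, and some of them control lipoprotein lipase, the enzyme that releases fatty acids from triglyceride in blood. Of the 10 genes, 8 lie in clusters whose members share regulatory DNA in mammals. Apoa1, Apoc3, Apoa4 and Apoa5 lie within 43.3 kb of chromosome 9, and Apoc2, Apoc4, Apoc1 and Apoe within 27.6 kb of chromosome 7.

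Positions are on mm10 as in the deposited table, and strands come from GENCODE vM21. On chromosome 9 the order was Apoa1 (46228630 to 46230466, plus strand), Apoc3 (46233051 to 46235297, minus), Apoa4 (46240844 to 46243458, plus) and Apoa5 (46268608 to 46271919, plus). On chromosome 7 all 4 genes lie on the minus strand, in the order Apoc2 (19671579 to 19676864), Apoc4 (19678084 to 19681460), Apoc1 (19689481 to 19692658) and Apoe (19696244 to 19699166). Apoa2 lies on chromosome 1 (171225054 to 171226379) and Apob on chromosome 12 (7977677 to 8016839), both on the plus strand. None of the 10 loci overlapped another locus of the table. In GENCODE, Apoc2 and Apoc4 are also joined by a read-through gene, Gm44805, and Apoa4 and Apoa5 are overlapped by antisense transcripts. The sources used here do not say whether reads were assigned by strand, so reads of Apoa4 and Apoa5 and of the antisense transcripts cannot be told apart. Gm44805 lies on the same minus strand as Apoc2 and Apoc4, so strand could not separate its reads from theirs.

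The DNA before the start of Apoa1, Apoa4, Apoa5, Apoc4 and Apob is shown because Apoa1 and Apoa4 were highest in the same KO library while Apoa5 of the same cluster was not, Apoc4 was lower in every KO library, and Apob varied least of the 10 genes among the WT libraries. The sequences are from RefSeq GRCm38.p6, and each ends before the earlier of the RefSeq and GENCODE starts. Capitals mark TATAAA, the core of a TATA box, and CAAAGGT, which reads ACCTTTG where it lies on the opposite strand.
Apoa1 (chr9:46228380-46228579, + strand): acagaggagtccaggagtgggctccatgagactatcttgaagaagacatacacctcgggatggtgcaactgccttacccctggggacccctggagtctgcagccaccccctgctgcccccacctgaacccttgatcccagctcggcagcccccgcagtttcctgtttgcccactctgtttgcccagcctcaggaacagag
Apoa4 (chr9:46240594-46240695, + strand): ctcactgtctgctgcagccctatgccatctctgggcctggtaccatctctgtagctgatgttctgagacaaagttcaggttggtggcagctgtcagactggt
Apoa5 (chr9:46268358-46268607, + strand): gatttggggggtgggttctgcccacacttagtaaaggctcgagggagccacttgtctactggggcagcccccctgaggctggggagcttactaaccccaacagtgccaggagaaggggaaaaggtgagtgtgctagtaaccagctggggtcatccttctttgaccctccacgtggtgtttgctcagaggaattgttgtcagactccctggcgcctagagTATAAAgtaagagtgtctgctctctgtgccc
Apoc4 (chr7:19681480-19681710, - strand): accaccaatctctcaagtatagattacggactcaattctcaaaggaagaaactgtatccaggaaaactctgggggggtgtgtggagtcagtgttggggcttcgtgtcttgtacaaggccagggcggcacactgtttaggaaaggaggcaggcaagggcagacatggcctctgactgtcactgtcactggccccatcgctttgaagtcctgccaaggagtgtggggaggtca
Apob (chr12:7977427-7977647, + strand): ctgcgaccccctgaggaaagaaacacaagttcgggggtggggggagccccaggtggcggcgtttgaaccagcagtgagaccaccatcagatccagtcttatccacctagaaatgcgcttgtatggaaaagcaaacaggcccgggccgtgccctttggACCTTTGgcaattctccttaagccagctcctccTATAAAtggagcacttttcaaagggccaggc
RefSeq start windows were matched for 8 of the 10 genes, all but Apoc1 and Apoc3. Where RefSeq gives several starts (Apoa2, Apoa5 and Apoe) the one nearest the start in the table was used. In the 250 bases before the RefSeq start, TATAAA was found on either strand in 3 of the 8, and in 12.4% of all 32851 mouse windows of that length. It lay 31 bases before the RefSeq start of Apoa5, 60 bases before that of Apob and 212 bases before that of Apoa2. These distances depend on the start used. From the other RefSeq start of Apoa5 the distance was 56 bases. The GENCODE start of Apob, at 7977648, lies nearer to its TATAAA than the RefSeq start, at 7977677. The count depends on the choice of RefSeq start, since the window of another Apoe start holds TATAAA and that of another Apoa2 start does not. CAAAGGT, a core found in sites of several nuclear receptors, was present in 1 of 8, Apob, 93 bases before its RefSeq start, and in 3.54% of all windows. CAAAGTC, the core of many HNF4 sites, was present in 0 of 8 and in 3.84% of all windows. A missing match says only that those letters are not in the window. The RefSeq start of Apoc2 lies 1077 bases before the start of the Apoc2 locus in the table and 142 bases from Apoc4, so its window runs into Apoc4 and is not printed.

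Levels are in FPKM, a read density corrected for transcript length and library total, so that levels can be set side by side between genes. FPKM summed to between 409142 and 495209 per library, and absolute depth is unknown. From ratios of low values, depth relative to WT replicate 1 was between 0.844 (KO replicate 3) and 1.21 (WT replicate 2). Arid1a itself measured 8.68, 8.45 and 8.49 FPKM in WT livers against 4.41, 5.57 and 6.15 in KO livers. All 3 KO values were lower, and the log2 difference of -0.59 (SE 0.15) missed the threshold in limma (adjusted p = 0.207). Of 10 proliferation genes 0 were called, against 0.119% of all tested loci, although their median log2 difference between KO and WT was 2.16. Their summed FPKM was between 9.09 and 39.0 in WT but 275, 12.5 and 440.2 in KO replicates 1, 2 and 3. The sum of KO replicate 2 fell between those of the WT libraries, and this library stood apart for several apolipoprotein genes. Log2 differences of Apoa1, Apoa4, Apoc2, Pon1, Surf4, A1cf and Lipc are given with and without it.

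The apolipoprotein genes were among the most abundant transcripts of these livers. Together they took 4.60%, 4.38% and 4.70% of all FPKM in WT livers against 4.23%, 5.64% and 5.23% in KO livers. The KO range enclosed the WT range. Of the 23535 loci with values, Apoa1 ranked between 4 and 14 in single libraries, and Apoa5, the member with the lowest WT mean, between 109 and 222. By WT mean the order of levels was Apoa1, Apoe, Apoa2, Apoc1, Apoc3, Apob, Apoc4, Apoa4, Apoc2 and Apoa5. WT libraries of neighbours in that order were fully separated between Apoa1 and Apoe, Apoe and Apoa2, Apoc1 and Apoc3, and Apoa4 and Apoc2. For the other neighbours they overlapped, so the order of Apoa2 and Apoc1, of Apoc3, Apob, Apoc4 and Apoa4, and of Apoc2 and Apoa5 was not resolved by these ranges. Within each WT library, however, Apoc3 was above both Apob and Apoc4.

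**Figure D1:**
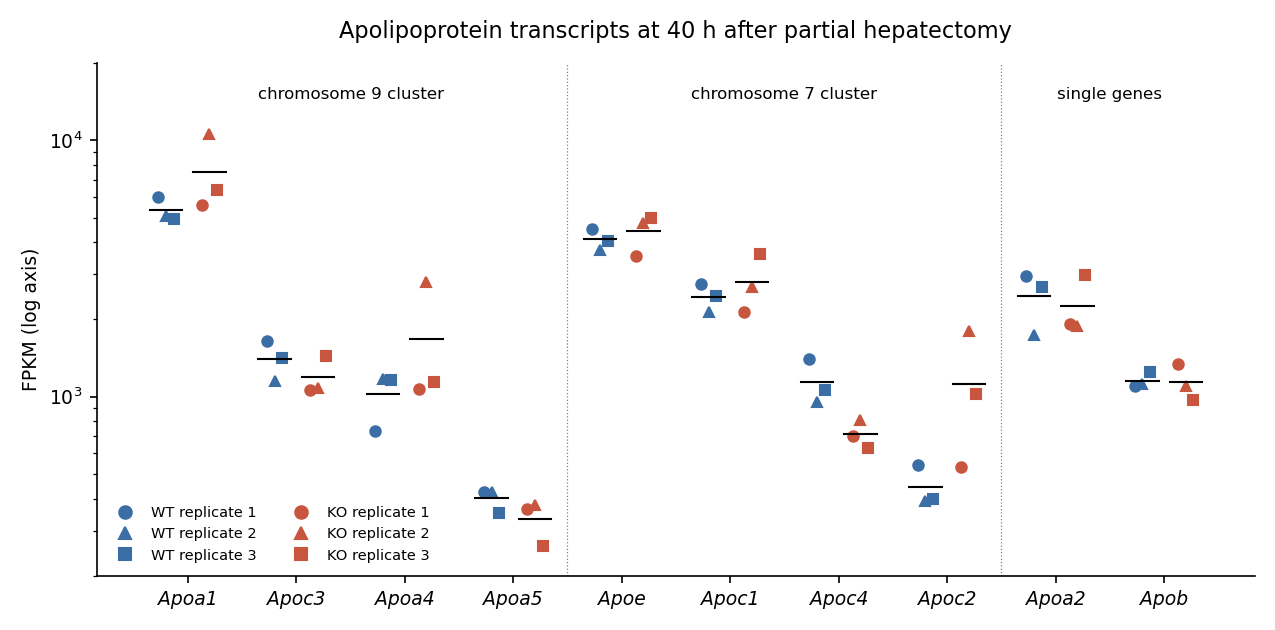
FPKM of the 10 apolipoprotein genes in each library on a log axis, WT in blue and KO in red, with the replicate number given by the symbol and the genotype mean by a black line. Apoa1, Apoa4 and Apoc2 are highest in KO replicate 2, and all 3 KO values of Apoc4 lie below its WT values.

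KO was compared with WT to ask which of these transcripts differed between livers with and without Alb-cre. Tests were run in limma on log2(FPKM + 1) over the 10956 loci with a mean of at least 1 FPKM, a filter that all 10 genes passed. A gene was called at a Benjamini-Hochberg adjusted p under 0.05. None of the 10 was called in limma, and 0.119% of all tested loci were (0.0183% higher and 0.1% lower in KO). This background moved when single libraries were left out. With all 6 libraries 2 loci were called higher and 11 lower, and without KO replicate 2 there were 197 higher and 45 lower. Without WT replicate 1, 0 loci were called. None of the 10 genes was called with any library left out. With all 6 libraries, 2 of the 10 reached an unadjusted p under 0.05, against 15.2% of all tested loci. They were Apoc2, higher in KO (11.2% of all loci), and Apoc4, lower in KO (3.99%). The genotypes were fully separated for 1 of the 10, Apoc4, against 22.1% of all tested loci (KO above in 16.7% and below in 5.44%). The median log2 difference was 0.031 over the 10 genes and 0.15 over all tested loci.

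**Figure D2:**
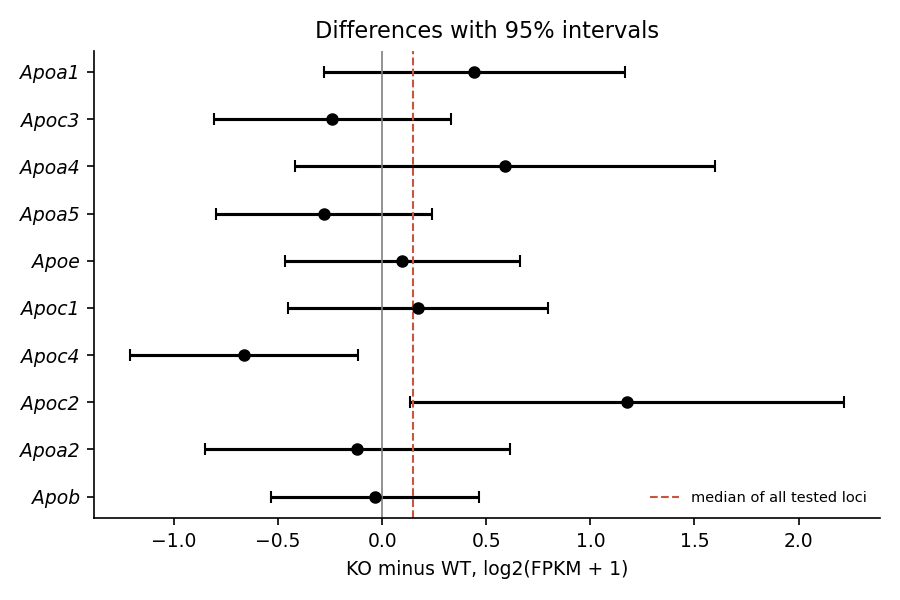
Log2 difference between KO and WT for the 10 genes with limma's 95% interval, in units of log2(FPKM + 1), with the median of all tested loci as a dashed line. The intervals of Apoc4 and Apoc2 lie on opposite sides of 0 and those of the other 8 genes include 0.

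Among the structural proteins, Apob measured 1104, 1117 and 1245 FPKM in WT livers against 1343, 1102 and 966 in KO livers. The values interleaved, and the log2 difference was -0.034 with a 95% interval from -0.53 to 0.47 (limma adjusted p = 0.950). It changed sign when WT replicate 3 or KO replicate 3 was left out. Apoa1, which also activates the cholesterol-esterifying enzyme Lcat, measured 6004, 5087 and 4940.3 FPKM in WT livers against 5570.2, 10615 and 6402 in KO livers. KO replicate 2 was 1.66 times the next highest library, and KO replicate 1 lay inside the WT range. Means were 5344 ± 576 (WT) and 7529 ± 2704 (KO; SD over 3 libraries), and the log2 difference was 0.44 (SE 0.30, adjusted p = 0.499), or 0.17 without KO replicate 2. Apoa2, another abundant HDL protein, measured 2966, 1746 and 2688 FPKM in WT livers against 1916, 1894 and 2986 in KO livers. Both genotypes spanned much the same range, and the log2 difference was -0.12, with an interval from -0.85 to 0.61.

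Apoc2, Apoc3 and Apoa5 act on lipoprotein lipase: Apoc2 is its required cofactor, Apoc3 inhibits it and slows particle uptake, and Apoa5 promotes lipolysis. Apoc2 measured 539, 393 and 399 FPKM in WT livers against 532, 1797 and 1022 in KO livers. KO replicates 2 and 3 lay above all WT libraries, whereas KO replicate 1 lay just under WT replicate 1. The KO mean was 2.52 times the WT mean, the highest such ratio of the 10 genes. The log2 difference of 1.18 (SE 0.44, interval from 0.13 to 2.22) did not pass in limma (adjusted p = 0.306). It was 0.75 without KO replicate 2 and 1.62 without KO replicate 1. Apoc3 measured 1652, 1154 and 1419 FPKM in WT livers against 1058, 1080.0 and 1438 in KO livers. KO replicates 1 and 2 lay below the WT range and KO replicate 3 inside it, and the log2 difference was -0.24 with an interval from -0.81 to 0.33. Apoa5 measured 425, 426 and 350.2 FPKM in WT livers against 363, 376 and 260.3 in KO livers. Only KO replicate 3 lay below the WT range, and the log2 difference was -0.28 with an interval from -0.80 to 0.24. It was -0.11 without KO replicate 3 and -0.43 after median-of-ratios rescaling.

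Apoa4, a component of HDL and of triglyceride-rich particles that the intestine also makes, measured 735, 1172 and 1165 FPKM in WT livers against 1073, 2811 and 1136 in KO livers. KO replicate 2 was 2.40 times the next highest library, and both other KO libraries lay inside the WT range. The log2 difference was 0.59 (SE 0.42, limma adjusted p = 0.517), and 0.14 without KO replicate 2. Of 5 intestinal genes, Cdx2 and Sis were listed at 0 in all 6 libraries, and Vil1 and Muc2 were at most 0.0590 FPKM. The remaining one, Fabp2, the fatty acid binding protein of enterocytes, measured 47.6, 53.2 and 52.2 FPKM in WT livers against 82.3, 184 and 55.8 in KO livers (adjusted p = 0.355). Fabp2 was thus highest in the same library as Apoa4.

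Apoc4, Apoc1 and Apoe come from the chromosome 7 cluster. Apoc4, a minor protein of very-low-density lipoproteins, measured 1405, 948 and 1062 FPKM in WT livers against 699, 807 and 629 in KO livers. Every KO library lay below every WT library. Means were 1139 ± 237 (WT) and 712 ± 89.3 (KO; SD over 3 libraries). The log2 difference of -0.66 (SE 0.23, 95% interval from -1.21 to -0.12) did not pass in limma (adjusted p = 0.287). With any 1 library left out it was between -0.79 and -0.50. Apoc1, which inhibits several lipid-modifying proteins of plasma, measured 2739, 2134 and 2477 FPKM in WT livers against 2146, 2681 and 3589 in KO livers. Only KO replicate 3 lay above the WT range, and the log2 difference of 0.17 was -0.023 without that library. Apoe, a ligand for receptors that clear particles into the liver, measured 4520.4, 3738 and 4062 FPKM in WT livers against 3541, 4764 and 4972 in KO livers. KO replicate 1 was the lowest and KO replicate 3 the highest of the 6. The log2 difference was 0.096 (interval from -0.47 to 0.66) and turned to -0.057 when libraries were rescaled by median of ratios.

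KO replicate 2 was at least 1.5 times every other library for 3 of the 10 genes, Apoa1, Apoa4 and Apoc2. Of all tested loci 5.33% met this in KO replicate 2, 3.04% in KO replicate 3, 0.922% in KO replicate 1, and 0.694%, 0.630% and 0.758% in WT replicates 1, 2 and 3. None of the 10 genes met it in another library. The part of the low proliferation sum of KO replicate 2 in these values was not tested. In whole tissue, fewer hepatocytes and less transcript per hepatocyte cannot be told apart. The 8 hepatocyte genes summed to between 34032 and 41054 FPKM in WT, and to 40631, 28510.5 and 31333 in KO replicates 1, 2 and 3. Alb, their most abundant member, was lowest in KO replicate 2, at 16226 FPKM, as were Ttr, Fah, Hpd and Tdo2. Trf was highest in that library, at 9659 FPKM, and Cps1 and Hnf4a were neither lowest nor highest there. The 11 macrophage genes, from cells that also make Apoe, summed to between 116 and 178 in WT and between 132 and 221 in KO. Sums of the 7 endothelial, 8 stellate cell, 5 bile duct and 6 lymphocyte genes overlapped between genotypes too, the last at most 1.31 FPKM. None of these marker genes was called in limma, against 0.119% of all tested loci. An unadjusted p under 0.05 was reached by 1 of 11 macrophage, 0 of 7 endothelial, 3 of 8 stellate and 0 of 2 tested bile duct genes. Of all tested loci 15.2% reached it. Of the stellate genes Reln was higher and Colec11 and Ecm1 were lower in KO, and of the macrophage genes Marco was higher. All 4 were fully separated, as were 22.1% of all tested loci, and they were named after their values were seen. Most of the bile duct sum was Spp1. Sox9 of the bile duct genes, at 1.17 ± 0.585 FPKM (WT) and 0.225 ± 0.155 (KO), and Nkg7 of the lymphocyte genes were too low to be tested. Both were lower in every KO library than in any WT library. Marco averaged 7.98 ± 2.52 FPKM (WT) and 18.7 ± 8.06 (KO), and Reln 9.63 ± 0.817 and 17.7 ± 3.75. Their part in the apolipoprotein values was not tested.

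The clusters were compared by the FPKM of their 4 genes summed in each library. The Apoa1, Apoc3, Apoa4 and Apoa5 cluster summed to 8815, 7838 and 7875 in WT livers against 8064, 14882 and 9237 in KO livers. The Apoe, Apoc1, Apoc4 and Apoc2 cluster summed to 9203, 7214 and 8000.4 in WT livers against 6918, 10049 and 10212 in KO livers. The first divided by the other was 0.958, 1.09 and 0.984 in WT livers against 1.17, 1.48 and 0.905 in KO livers, and the genotypes overlapped. Scaling a library by a single factor does not change that ratio. Log2 differences between KO and WT ran from -0.28 (Apoa5) to 0.59 (Apoa4) within the chromosome 9 cluster and from -0.66 (Apoc4) to 1.18 (Apoc2) within the chromosome 7 cluster. In each cluster the estimates thus pointed both ways, and none was called.

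Ratios of neighbouring genes were taken within each library for the 6 adjacent pairs. They are given as a description with no test, because they were looked at with the values known, and the pairs share genes. For 3 of the 6 pairs the genotypes were fully separated, against 18.2% of 10046 pairs of neighbouring tested loci across the genome. Apoc2 divided by Apoc4, whose loci are 1.22 kb apart, was 0.384, 0.414 and 0.375 in WT livers against 0.760, 2.23 and 1.62 in KO livers. In WT the 3 ratios lay close together with Apoc4 the higher gene, and in KO replicates 2 and 3 Apoc2 was the higher gene. How reads of the read-through transcript were divided between Apoc2 and Apoc4 is not stated in the sources used here. Apoc1 divided by Apoc4 was 1.95, 2.25 and 2.33 in WT livers against 3.07, 3.32 and 5.70 in KO livers, again without overlap.

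Apoe and Apoc1, 3.58 kb apart, kept a nearly fixed ratio, 1.65, 1.75 and 1.64 in WT livers against 1.65, 1.78 and 1.39 in KO livers. It varied 1.28-fold over the 6 libraries, and Apoc2 to Apoc4 varied 5.93-fold. On chromosome 9, Apoa1 divided by Apoc3, which are transcribed towards each other, was 3.64, 4.41 and 3.48 in WT livers against 5.26, 9.83 and 4.45 in KO livers. The genotypes were separated by a narrow margin, between WT replicate 2 and KO replicate 3. Apoa4 divided by Apoc3 was 0.445, 1.02 and 0.821 in WT livers against 1.01, 2.60 and 0.790 in KO livers. Apoa4 divided by Apoa5, 25.1 kb apart, was 1.73, 2.75 and 3.33 in WT livers against 2.95, 7.48 and 4.37 in KO livers. For both of these the genotypes overlapped and KO replicate 2 was the highest library.

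**Figure D3:**
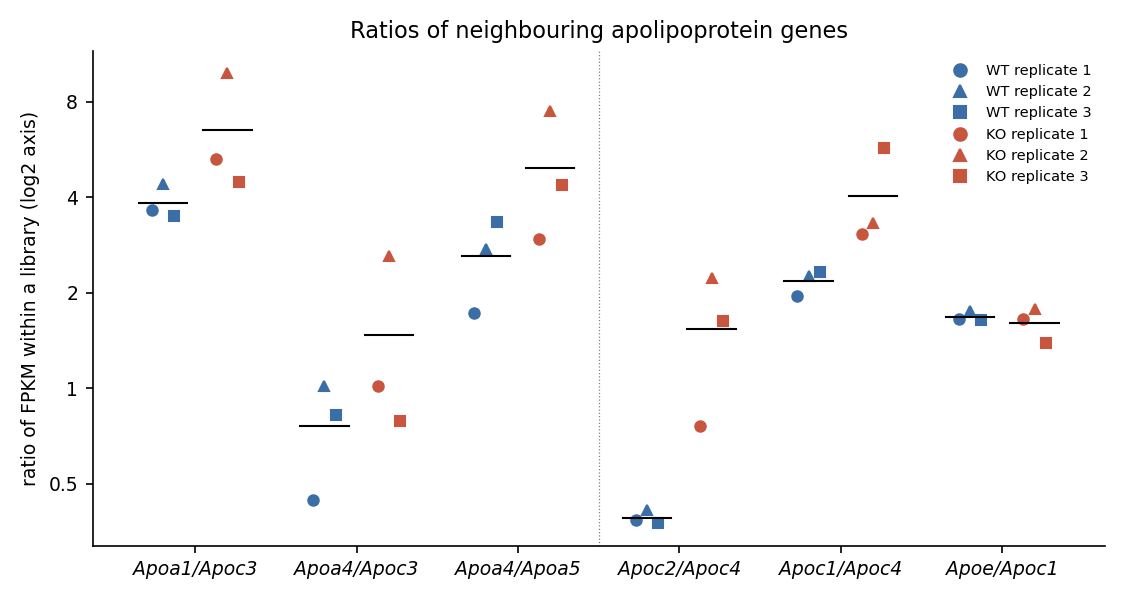
Ratio of FPKM of adjacent genes within each library on a log2 axis, WT in blue and KO in red, with the genotype mean as a black line and the chromosome 9 pairs to the left of the dotted line. The ratio of Apoc2 to Apoc4 is at most 0.414 in WT and at least 0.760 in KO, while that of Apoe to Apoc1 stays between 1.39 and 1.78.

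The genes that flank the clusters were far lower. Next to Apoa5, Zfp259 (Zpr1), a zinc finger protein gene 1.14 kb away, measured 10.8, 15.9 and 13.3 FPKM in WT livers against 15.9, 18.7 and 15.9 in KO livers, and Bud13, a splicing factor gene, lay between 1.94 and 4.18 over all 6. On the side of Apoa1, the kinase gene Sik3 lay between 5.36 and 8.08 FPKM and Pafah1b2 between 6.84 and 10.5. Next to Apoe, Tomm40, a gene of the mitochondrial import pore, measured 21.7, 15.4 and 24.0 FPKM in WT livers against 21.5, 29.9 and 33.4 in KO livers. Pvrl2, which encodes nectin-2, measured 11.6, 9.79 and 8.54 against 11.5, 28.7 and 12.8, with KO replicate 2 the highest. On the side of Apoc2, Clptm1 measured 22.1, 21.9 and 20.3 FPKM in WT livers against 24.2, 29.1 and 23.6 in KO livers. Clasrp measured 2.27, 1.82 and 1.99 against 3.64, 3.75 and 2.77. All KO libraries lay above WT for both, and by a narrow margin for Zfp259, as in 16.7% of all tested loci. None of the 8 flanking genes was called in limma (smallest adjusted p = 0.245, for Clasrp), against 0.119% of all tested loci.

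Likeness between genes was measured as the mean absolute difference of their centred log2(FPKM + 1) values over the 6 libraries. Among the 10 genes the closest pair was Apoe and Apoc1 (0.08), followed by Apoa2 and Apoc3 (0.097), which lie on different chromosomes. Apoc2 was the farthest from any other member, 0.42 from Apoa1. Over all tested loci the one most alike to Apoa1 was Rpl13a (0.036), a ribosomal protein gene that measured 263, 215 and 213 FPKM in WT livers against 230.0, 481 and 282 in KO livers. For Apoa2 it was Slc29a1 (0.047), for Apoc3 Haao (0.05), for Apob Wars (0.03), for Apoa5 Fosl2 (0.047) and for Apoe Zfp777 (0.024). For Apoc1 it was Spats2 (0.055), for Apoc4 Pex26 (0.087), for Apoa4 Vwce (0.13) and for Apoc2 Bola2 (0.17). Some of these loci were low: Zfp777 lay between 2.08 and 3.17 FPKM, Fosl2 between 1.86 and 3.31 and Spats2 between 2.23 and 3.89. At such levels log2(FPKM + 1) understates changes. Each match is the closest of 10956 tested loci over only 6 libraries, so a close match says little, and shared control was not tested.

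Genes that load, remodel and clear lipoproteins were taken from 7 lists of 72 genes in all. Of the 67 tested, 0 were called in limma, against 0.119% of all tested loci. At an unadjusted p under 0.05, 6 were higher and 9 lower in KO, and 15.2% of all tested loci reached that p (11.2% higher and 3.99% lower). All KO libraries lay above WT for 8 of the 67 and below WT for 11, against 16.7% and 5.44% of all tested loci. For assembly and secretion 11 of 11 genes were tested and 1 reached it. Mttp, the transfer protein that loads lipid onto Apob, measured 101, 112 and 90.3 FPKM in WT livers against 117, 127 and 73.1 in KO livers. The KO range enclosed the WT range, and the log2 difference of 0.030 turned to -0.12 after median-of-ratios rescaling. Sort1, a sorting receptor that binds Apob, measured 2.56, 3.70 and 4.01 FPKM in WT livers against 1.38, 1.31 and 1.57 in KO livers. All KO libraries lay below WT (log2 difference -0.86, SE 0.18, limma adjusted p = 0.164). Surf4, a cargo receptor for lipoprotein export from the endoplasmic reticulum, averaged 82.9 ± 7.45 FPKM (WT) and 112 ± 31.8 (KO), a log2 difference of 0.40, or 0.18 without KO replicate 2.

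Of 4 genes for editing of Apob messenger RNA, 0 reached an unadjusted p under 0.05, against 15.2% of all tested loci. Apobec1, the editing enzyme, measured 5.27, 9.09 and 3.29 FPKM in WT livers against 5.88, 5.05 and 3.24 in KO livers, and its cofactor A1cf averaged 30.5 ± 6.73 (WT) and 42.4 ± 15.7 (KO). The log2 difference of A1cf was 0.42, or 0.16 without KO replicate 2. Syncrip, which binds the editing complex, measured 16.6, 16.6 and 20.2 against 21.5, 20.9 and 24.0, with all KO libraries above WT. Among 7 tested genes of other apolipoproteins and HDL-borne proteins, 3 reached that p, 1 higher and 2 lower in KO. The higher one, Apom, measured 273, 222 and 305 FPKM in WT livers against 381, 326 and 416 in KO livers. All its KO libraries lay above WT (log2 difference 0.49, SE 0.20, limma adjusted p = 0.325). Pon1, a paraoxonase that travels on HDL, measured 235, 181 and 292 FPKM in WT livers against 181, 52.6 and 116 in KO livers (log2 difference -1.15, SE 0.45, limma adjusted p = 0.311), or -0.67 without KO replicate 2. WT replicate 2 and KO replicate 1 were almost equal. Apon measured 214, 126 and 189.6 FPKM against 103, 124 and 111, likewise with little room between the lowest WT and the highest KO library.

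Of 9 HDL remodelling genes, 1 was higher and 2 were lower in KO at that p, against 11.2% and 3.99% of all tested loci. Pltp, the phospholipid transfer protein of plasma, measured 9.50, 9.21 and 7.19 FPKM in WT livers against 22.7, 14.9 and 16.5 in KO livers, all KO libraries above WT (log2 difference 0.97, SE 0.20, limma adjusted p = 0.164). Abca1, which exports cholesterol onto Apoa1, measured 38.4, 38.2 and 42.9 FPKM against 33.1, 25.3 and 27.3, all KO libraries below WT (log2 difference -0.47, SE 0.16, adjusted p = 0.287). Lipg, endothelial lipase, measured 5.80, 1.22 and 1.47 FPKM against 0.182, 0.216 and 0.503, with WT replicate 1 far above the rest. For the other 3 named genes of this list the genotypes overlapped. Lcat averaged 364 ± 35.3 FPKM (WT) and 349 ± 41.9 (KO), and Lipc, hepatic lipase, 15.5 ± 3.50 and 11.5 ± 4.68. The log2 difference of Lipc was -0.45, or -0.12 without KO replicate 2. Scarb1, the HDL receptor, averaged 70.9 ± 11.1 and 76.9 ± 9.39, a log2 difference of 0.12 that turned to -0.032 after median-of-ratios rescaling.

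Of 6 lipolysis genes, 2 reached that p, both higher in KO and both fully separated. Of all tested loci 11.2% were higher at that p, and in 16.7% all KO libraries lay above WT. Lpl, the lipase that Apoc2 activates, measured 1.61, 3.10 and 3.86 FPKM in WT livers against 25.3, 10.3 and 20.2 in KO livers (log2 difference 2.31, SE 0.37, limma adjusted p = 0.123), and it passed without KO replicate 2 (adjusted p = 0.0183; 0.379 at most over 14 alternatives). Gpihbp1, which anchors the lipase on capillaries, measured 4.03, 4.98 and 4.08 FPKM against 6.75, 14.9 and 9.13 (log2 difference 1.01, SE 0.27, adjusted p = 0.212). Of 10 uptake genes 7 were tested and 3 reached that p, 1 higher (Lrpap1) and 2 lower, against 15.2% of all tested loci. Lrp1, a remnant receptor that binds Apoe, measured 178, 168 and 177 FPKM against 137, 133 and 124, all KO libraries below WT (adjusted p = 0.309). Mylip, a ubiquitin ligase gene of lipoprotein uptake, measured 3.09, 3.05 and 2.45 FPKM against 1.65, 1.30 and 1.56, again all below (adjusted p = 0.206).

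Of 23 tested genes of transcriptional regulators, 3 reached an unadjusted p under 0.05, 1 higher (Foxa1) and 2 lower, against 15.2% of all tested loci. Hnf4a, a nuclear receptor of hepatocytes that binds apolipoprotein promoters, measured 138, 196 and 114 FPKM in WT livers against 173, 138 and 155 in KO livers. The KO values lay inside the WT range, and the log2 difference of 0.083 turned to -0.069 after median-of-ratios rescaling. Ppara, a nuclear receptor of fatty acid oxidation, measured 35.2, 27.7 and 29.6 FPKM against 21.8, 25.5 and 18.0, all KO libraries below WT (limma adjusted p = 0.308).

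**Figure D4:**
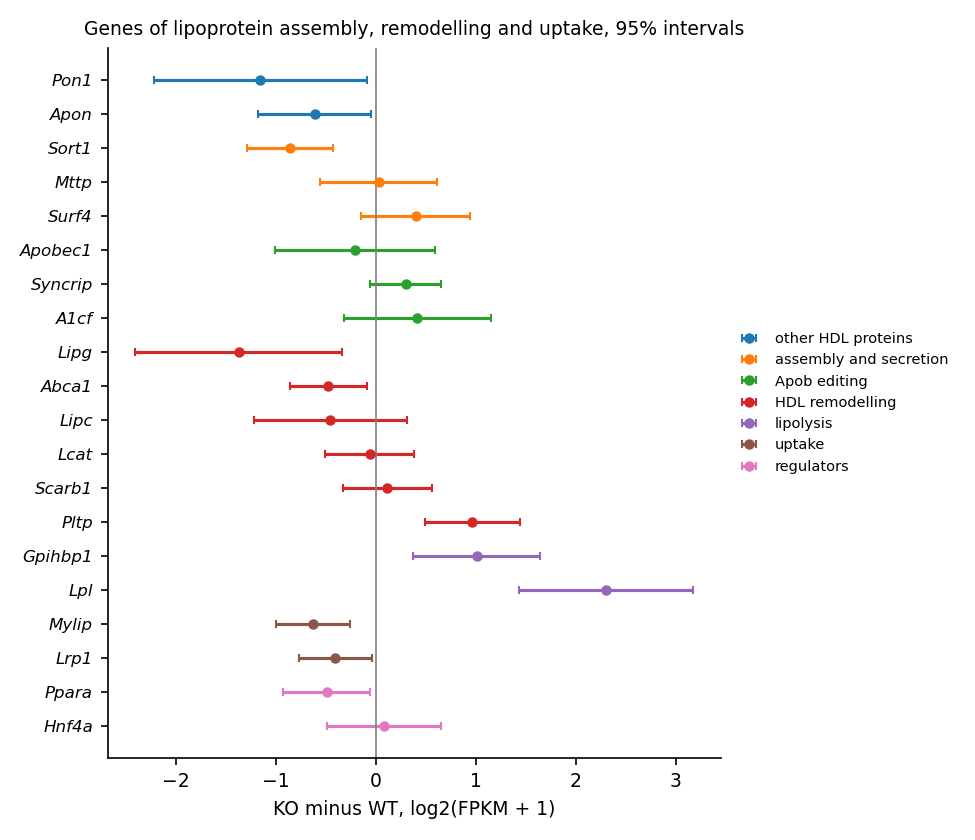
Log2 difference between KO and WT with limma's 95% interval for the named genes of lipoprotein assembly, editing, remodelling, lipolysis, uptake and regulation, coloured by list, in units of log2(FPKM + 1). Lpl lies farthest to the right at 2.31 and Lipg farthest to the left at -1.37, and none passed the adjusted threshold. Apom, Lrpap1 and Foxa1 are not shown.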

How the data were processed

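RNA sequencing of liver was available as 1 table of FPKM per gene locus for the 6 libraries at 40 h, as the authors deposited it. The submitters' processing notes name TopHat, edgeR, mm9 and mm10 without roles, and no source used here states how the table was filtered. Total read numbers are unknown. At a tolerance of 0.02 on the log2 scale, 61.7% to 65.9% of ratios between values under 0.3 FPKM lay on ratios of up to 6 whole reads, against a median of 9.81% to 11.2% over shifted positions.

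Of 23847 loci, 312 marked LOWDATA were left out, and the floor of 0.001 was set to 0. Starts are printed counted from 1. The analysis used log2(FPKM + 1), which understates the change of low genes, without rescaling, for 10956 loci with a mean of at least 1 FPKM. Genotypes were compared two-sided in limma 3.58.1 under R 4.3.3 (eBayes, trend). The fit was tested on simulated data. Intervals are at 95%. The members and gene lists were chosen with earlier results of these data known. Named were all 10 members, in each list every called gene and the 2 with the smallest p, 9 pathway genes given by name, Arid1a, 2 tested loci on each side of each cluster and the locus most alike to each member. Of these, 2 pathway genes are not reported here. Motifs, neighbour ratios and the 1.5-fold comparison were chosen after values were seen. So was the naming of the hepatocyte genes other than Hnf4a, the intestinal genes, Apom, Lrpap1, Foxa1 and further marker genes. Alternatives were other scalings, filters, a pseudocount of 0.1, robust estimation, a replicate block and leaving out each library.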

Additional observations from a re-analysis of the deposited data

How the results depend on the processing

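None of the 10 apolipoprotein genes was called under any of the 14 alternatives. Over all tested loci 13 were called (2 higher and 11 lower in KO). The number was 6 with no filter on low values, 5 with a mean of at least 5 FPKM and 20 with robust estimation. With 1 library left out it ranged from 0 (without WT replicate 1, with 940 at an unadjusted p under 0.05 in limma) to 242 (without KO replicate 2, 197 higher and 45 lower in KO). It was 2 without WT replicate 2, 3 without WT replicate 3 and 2 without KO replicate 3. The cause was not tested. The 2 higher and 11 lower calls became 0 and 13 after median-of-ratios rescaling, 0 and 14 after quantile normalization, and 1 and 13 when scaled to the sum without the 50 most abundant loci. With the replicate block, in which libraries of the same number form a pair, 47 were called (10 higher, 37 lower). Deviations of same-numbered libraries correlated at -0.084, 0.16 and 0.16, and 3 of 6 libraries correlated best with their own number, so the numbers were not taken as pairs. The median log2 difference of all tested loci, 0.15 as deposited, was 0.019 after median-of-ratios rescaling. Apoa1, Apoa4, Apoa5, Apoc2, Apoc3 and Apoc4 kept their direction in all 14 alternatives. Signs that reversed were of differences that were not called. After median-of-ratios rescaling Apoe was -0.057, Mttp -0.12, Scarb1 -0.032 and Hnf4a -0.069. After quantile normalization Mttp was -0.072 and Hnf4a -0.034. Scaled to the sum without the 50 most abundant loci, Apoe was -0.026, Mttp -0.091, Scarb1 -0.0013 and Hnf4a -0.038. Leaving out each library in turn gave ranges across 0 for Apoa2 (-0.35 to 0.031), Apob (-0.16 to 0.076), Apoc1 (-0.023 to 0.35), Mttp (-0.12 to 0.27), Apobec1 (-0.50 to 0.11), Lcat (-0.14 to 0.030) and Hnf4a (-0.092 to 0.30).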
